A study of Homo sapiens and Mus musculus with 18 samples.

Results

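This account follows 10 genes of the epithelial to mesenchymal transition, chosen by name, through 12 RNA-seq libraries of 2 human pancreatic cancer cell lines that differ in keratin 17. They are EPCAM and CDH1 (epithelial adhesion), VIM, CDH2 and FN1 (mesenchymal cytoskeleton, adhesion and matrix), and the transcription factors ZEB1, ZEB2, SNAI1, SNAI2 and TWIST1. Of the 10 genes, 9 have a row among the 34505 genes in each human count file, and SNAI1 was not analysed here. Keratin 17 (K17, gene KRT17) is an intermediate filament protein of stratified and basal-type epithelium.

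In the epithelial to mesenchymal transition, epithelial cells give up the adhesion molecules that hold a sheet together and take up a filament, adhesion and matrix programme of motile cells. The ZEB, SNAIL and TWIST factors bind E-box sequences and repress epithelial genes such as CDH1, which encodes E-cadherin. In pancreatic cancer cell lines the balance of E-cadherin and EpCAM against vimentin and ZEB1 is widely used to place a line along this axis.

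The libraries fall into 4 groups of 3. L3.6 cells, which the labels give as a pancreatic adenosquamous carcinoma, were sequenced after CRISPR-Cas9 knockout of KRT17 and as wild type cells. PANC-1 cells, labelled as pancreatic ductal adenocarcinoma, were sequenced with over-expressed K17 and with an empty vector. The labels do not say whether the knockout is 1 clone or a mixed population, or that replicates are separate cultures, so the p-values measure the spread between these libraries, which may be technical. All cells were kept in the same serum-containing medium.

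Library totals ran from 12561589 to 13800079 counts in L3.6 knockout, 9485257 to 15476629 in L3.6 wild type, 59671178 to 61507212 in PANC-1 K17 and 63280851 to 70789559 in PANC-1 empty vector. Levels below are counts per 1000000 counts of the library (CPM), which are not corrected for gene length, so they are compared between samples and not between genes. KRT17 had 16.1, 14.8 and 13.4 CPM in L3.6 knockout cells against 107, 117 and 117 CPM in L3.6 wild type cells. It had 140, 166 and 151 CPM in PANC-1 K17 cells, and 2, 0 and 0 counts in the PANC-1 empty vector libraries. Both contrasts passed the test in edgeR (adjusted p = 3.29e-06 in L3.6 and 0.00646 in PANC-1), and the targeted gene followed the labels in all 12 libraries.

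One library stood apart. PANC-1 empty vector replicate 2 had 18.8% of its counts on mitochondrial DNA, against 9.88% to 10.8% in the other 5 PANC-1 libraries, and lay at 135 on the first principal component of PANC-1, where the others lay between -31.6 and -22.0. PANC-1 results are therefore given with and without it. In L3.6, wild type replicate 1 had a first component score of 7.44, where knockout scored -40.6 to -18.6 and its fellow wild types 40.1 and 41.3.

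As a check on the labelled cell types, all 8 ductal markers have a row in the files, and their summed level was 3370 to 3691 CPM in L3.6 knockout, 2714 to 3196 in L3.6 wild type, 1176 to 1280 in PANC-1 K17 and 1059 to 1879 in PANC-1 empty vector. The 5 of 7 squamous markers with a row summed to 1435 to 1459 CPM in L3.6 knockout and 952 to 1154 CPM in L3.6 wild type, but to 4.06 to 4.40 CPM in PANC-1 K17 and 4.39 to 8.37 CPM in PANC-1 empty vector. KRT6A was at 0 in both L3.6 groups, and 3 of the 5 had counts in every library of each L3.6 group. The L3.6 sums thus rest on part of the list. The 8 fibroblast markers, which share genes with the mesenchymal programme, summed to 167 to 189 CPM in L3.6 knockout and 186 to 218 CPM in L3.6 wild type. They summed to 142 to 145 CPM in PANC-1 K17 and 26.7 to 43.2 CPM in PANC-1 empty vector, a difference carried by COL1A1. The immune marker CD3E and the islet hormones INS and GCG were at 0 in all 12 libraries.

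The promoters of VIM and ZEB1 are shown because VIM passed the test in L3.6 with all libraries and ZEB1 passed in PANC-1 without the empty vector library that stood apart. Each is the stretch of 250 bases before a RefSeq gene start on GRCh38.p14, the first at chr10:17227991-17228240 and the second at chr10:31318167-31318416, both on the plus strand. ZEB1 has 7 annotated starts, and the outermost is printed. Capitals mark the E-box CACCTG or its reverse complement CAGGTG, a sequence that ZEB and SNAIL factors are known to bind.
VIM promoter: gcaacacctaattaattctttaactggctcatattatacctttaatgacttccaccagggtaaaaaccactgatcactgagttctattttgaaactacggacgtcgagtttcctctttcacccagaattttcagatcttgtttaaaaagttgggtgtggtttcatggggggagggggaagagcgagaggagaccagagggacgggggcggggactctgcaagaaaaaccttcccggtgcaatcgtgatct
ZEB1 promoter: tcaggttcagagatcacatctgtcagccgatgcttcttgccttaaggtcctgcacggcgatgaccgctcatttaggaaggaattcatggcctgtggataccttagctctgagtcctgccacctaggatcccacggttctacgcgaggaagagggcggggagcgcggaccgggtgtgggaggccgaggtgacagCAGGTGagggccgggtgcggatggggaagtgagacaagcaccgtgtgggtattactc
The VIM stretch has no match, and the ZEB1 stretch has 1, which begins 57 bases before the start. Of all 35116 stretches of this length, 17.5% hold the motif on either strand, as do 2 of the 7 ZEB1 stretches and no other of the 12 stretches matched for 5 members. SNAI2 was left out of this matching, and CDH1, EPCAM, SNAI1 and TWIST1 had no stretch to search. A match is a run of letters and was not tested for binding.

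**Figure D1:**
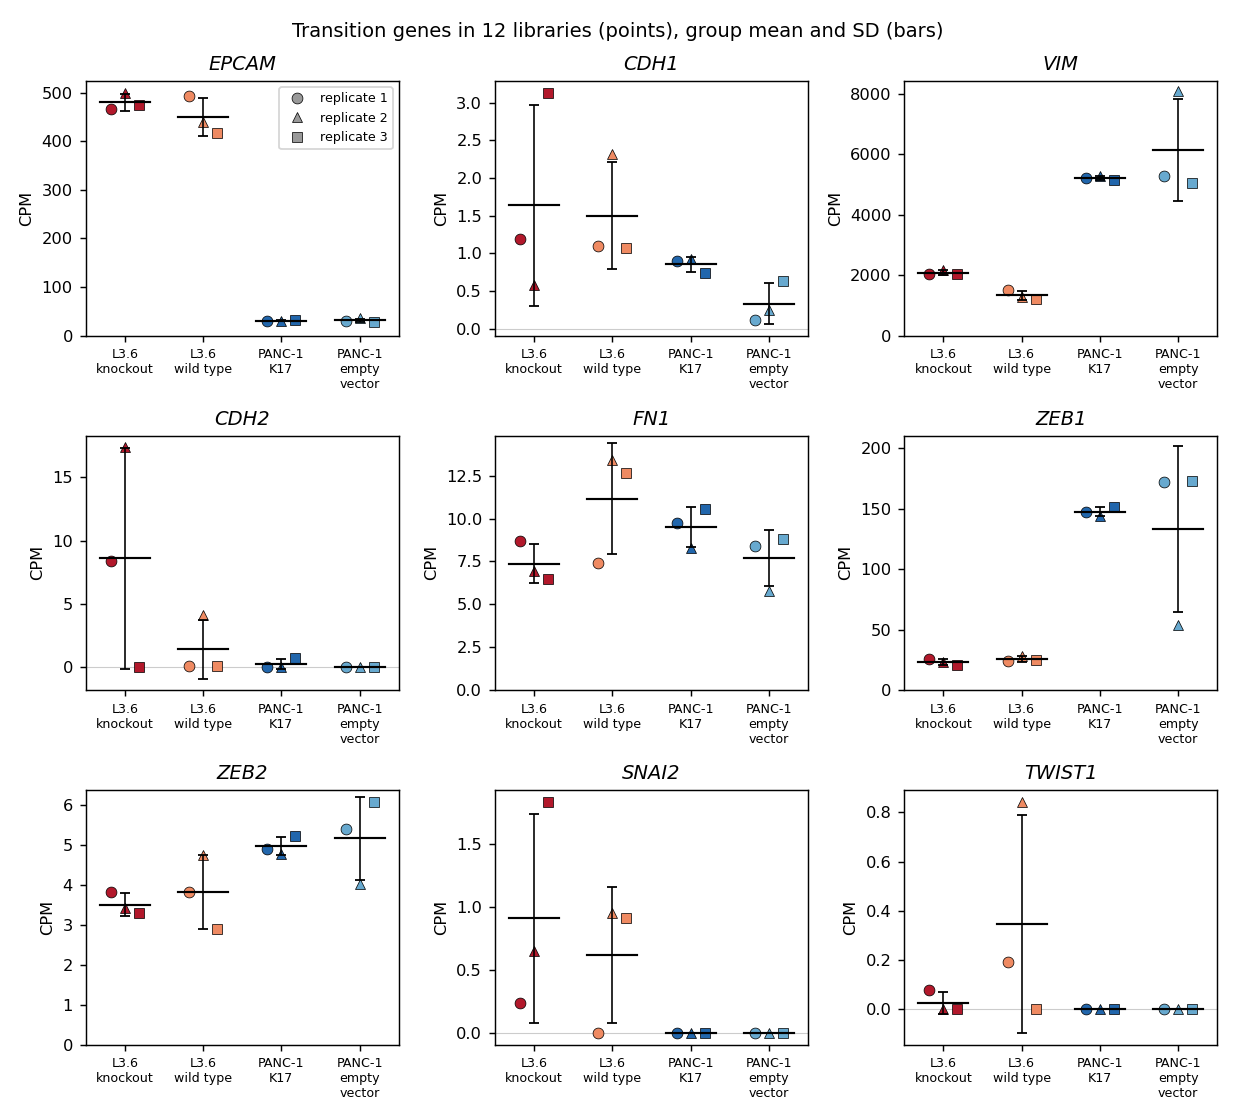
Level of the 9 members in CPM (vertical axis, linear, own scale per gene) in each of 12 libraries; symbols mark the replicate, the horizontal bar is the group mean and the vertical bar its SD (n = 3). VIM is higher in all 3 L3.6 knockout libraries than in the wild type ones, EPCAM separates the lines, and VIM and ZEB1 of PANC-1 empty vector replicate 2 lie away from the other empty vector libraries.

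Loss of K17 in L3.6 cells went with more vimentin transcript and with no other called change among the members. VIM, on chromosome 10 (17228259 to 17237593, plus strand, ENSG00000026025.15), encodes the main intermediate filament protein of mesenchymal cells. It had 2031, 2179 and 2049 CPM in the knockout libraries against 1506, 1285 and 1206 CPM in the wild type libraries. The 2 groups did not overlap. The share of all genes without overlap between groups was not computed, for this comparison or those below. The means were 2086 ± 81.0 CPM in knockout and 1332 ± 155 CPM in wild type cells (SD, n = 3 each), and the fitted log2 fold change was 0.62 (SE 0.0732, edgeR adjusted p = 0.00174), a rise of 1.54-fold. VIM was thus 1 of 8 members tested that passed, where 9.61% of the 13891 genes tested in L3.6 passed, 6.1% upward and 3.51% downward. Leaving out any 1 library kept the rise between 0.56 and 0.71, all past the threshold. The cytoskeletal actin ACTB, often taken as a constant gene, rose by a like amount in the same libraries (0.63, SE 0.0487, edgeR adjusted p = 0.000245). In 1 fit of all 4 human groups, where the spread is shared with PANC-1, the rise of VIM was 0.65 and no longer passed (edgeR adjusted p = 0.148).

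The epithelial adhesion genes gave no call in L3.6. EPCAM encodes the cell surface adhesion protein EpCAM and lies on chromosome 2 (47345158 to 47387601, plus strand, ENSG00000119888.10). It had 467, 500.2 and 474 CPM in knockout and 493, 439.6 and 416 CPM in wild type libraries. These groups overlap, and the log2 fold change of 0.068 (SE 0.0625) has a 95% interval of -0.075 to 0.21 (edgeR adjusted p = 0.510). CDH1, on chromosome 16 (68737225 to 68835548, plus strand, ENSG00000039068.18), was counted thinly, with 15, 8 and 41 counts in knockout and 17, 22 and 13 counts in wild type libraries. Knockout replicate 3 holds most of the knockout counts of CDH1. The interval of its log2 fold change, -1.32 to 1.58 around 0.13, takes in sizable changes of either sign (edgeR adjusted p = 0.911).

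The other mesenchymal members moved less or unevenly. CDH2 encodes N-cadherin, the adhesion molecule that often replaces E-cadherin in the transition (chromosome 18, 27950966 to 28177446, minus strand, ENSG00000170558.8). It had 105, 240 and 0 counts in knockout and 1, 39 and 1 counts in wild type libraries. The libraries of each group thus differ widely among themselves, and the log2 fold change of 2.71 has an SE of 1.69 (edgeR adjusted p = 0.341). FN1 encodes the matrix glycoprotein fibronectin (chromosome 2, 215360440 to 215436172, minus strand, ENSG00000115414.18). It had 8.68, 6.96 and 6.49 CPM in knockout and 7.43, 13.4 and 12.7 CPM in wild type libraries. Wild type replicate 1 lay among the knockout values. The log2 fold change was -0.62 (SE 0.256, edgeR adjusted p = 0.159), and without wild type replicate 1 it was -0.86 and passed (edgeR adjusted p = 0.0209).

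None of the transcription factors passed in L3.6 in edgeR, and none had an unadjusted p below 0.05; DESeq2 and limma-voom each called 1 member, VIM. ZEB1 and ZEB2 are zinc finger repressors of E-cadherin. ZEB1, on chromosome 10 (31318495 to 31529814, plus strand, ENSG00000148516.21), had 25.5, 23.3 and 21.1 CPM in knockout and 24.3, 28.4 and 24.6 CPM in wild type libraries, which overlap. Its log2 fold change was -0.17 (SE 0.116, 95% interval -0.44 to 0.093, edgeR adjusted p = 0.364). ZEB2, on chromosome 2 (144364364 to 144524583, minus strand, ENSG00000169554.19), had 3.82, 3.41 and 3.28 CPM in knockout and 3.81, 4.74 and 2.90 CPM in wild type libraries (fitted change -0.15, SE 0.261, edgeR adjusted p = 0.747). SNAI2, which encodes the repressor Slug (chromosome 8, 48917604 to 48921740, minus strand, ENSG00000019549.10), had 3, 9 and 24 counts in knockout and 0, 9 and 11 counts in wild type libraries (0.61, SE 1.06, edgeR adjusted p = 0.742). TWIST1, which encodes a basic helix-loop-helix factor (chromosome 7, 19020991 to 19117672, minus strand, ENSG00000122691.12), had 1, 0 and 0 counts in knockout and 3, 8 and 0 counts in wild type libraries and was too sparse to test. The counts of SNAI2 and TWIST1 are few. The 95% interval of the SNAI2 change, -1.86 to 3.09, takes in sizable changes of either sign.

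**Figure D2:**
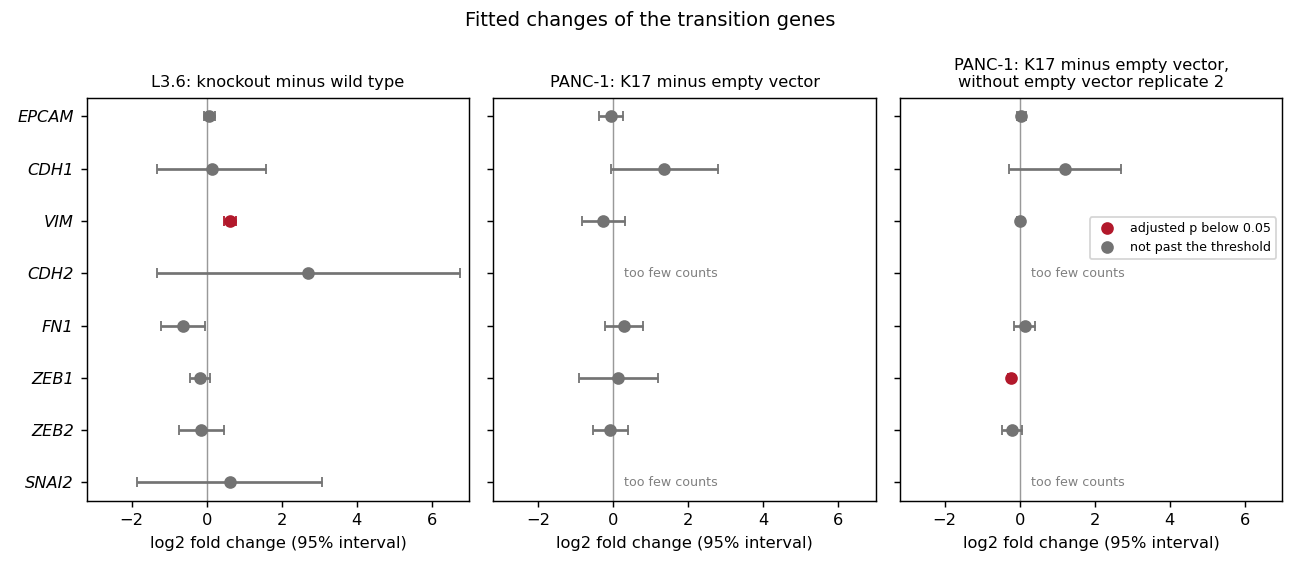
Fitted log2 fold change of each member (points) with its 95% interval (bars) in L3.6 (left), in PANC-1 with all libraries (middle) and in PANC-1 without empty vector replicate 2 (right); positive values are higher in knockout or in K17 cells, and red marks an edgeR adjusted p below 0.05. VIM passes at 0.62 in L3.6, and ZEB1 passes at -0.24 in PANC-1 only in the fit without empty vector replicate 2.

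In PANC-1 cells, over-expressed K17 went with no called change in any of the 6 members that had counts enough to test. None of them had an unadjusted p below 0.05, and DESeq2 and limma-voom called none either. The background there is small: 0.644% of 16295 genes passed, 0.583% upward and 0.0614% downward. VIM had 5209, 5281 and 5139 CPM in the K17 libraries and 5290, 8078 and 5058 CPM in the empty vector libraries. The K17 values lie within the range of the empty vector values, whose spread comes from replicate 2. The log2 fold change of VIM was -0.26 (SE 0.233, edgeR adjusted p = 0.731) with all libraries and -0.0012 without empty vector replicate 2 (95% interval -0.082 to 0.080, edgeR adjusted p = 0.985). EPCAM had 31.1, 30.8 and 31.3 CPM in K17 and 30.8, 35.8 and 29.05 CPM in empty vector libraries. Its log2 fold change was -0.058 (SE 0.136, edgeR adjusted p = 0.890), or 0.044 (SE 0.0548, 95% interval -0.086 to 0.17, edgeR adjusted p = 0.654) without replicate 2.

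ZEB1 was the member whose PANC-1 result turned on that library. It had 147, 144 and 151 CPM in K17 libraries and 172, 53.7 and 172 CPM in empty vector libraries. Empty vector replicates 1 and 3 lay above all K17 values and replicate 2 lay far below them. With all libraries the log2 fold change was 0.14 (SE 0.427, edgeR adjusted p = 0.918). Without replicate 2 it was -0.24 (SE 0.0299, edgeR adjusted p = 0.00194), a fall to 1.18-fold below empty vector, and ZEB1 was then the only 1 of 6 members tested to pass. In that fit 20.7% of 16640 genes passed, 11.4% upward and 9.25% downward, so 1 of 6 is near the background. Within that fit the fall of ZEB1 stayed between -0.29 and -0.22 over 13 other settings, all past the threshold.

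ZEB2 had 4.89, 4.78 and 5.22 CPM in K17 and 5.40, 4.03 and 6.07 CPM in empty vector libraries, which gave log2 fold changes of -0.074 (SE 0.188, edgeR adjusted p = 0.898) with all libraries and -0.22 (SE 0.111, edgeR adjusted p = 0.238) without replicate 2. FN1 had 9.72, 8.26 and 10.5 CPM in K17 and 8.42, 5.81 and 8.83 CPM in empty vector libraries, with 0.29 (SE 0.206, edgeR adjusted p = 0.673) and 0.13 (SE 0.118, edgeR adjusted p = 0.524). Both genes overlap between the groups. CDH1 had 0.894, 0.922 and 0.738 CPM (55, 55 and 45 counts) in K17 and 0.113, 0.244 and 0.632 CPM (8, 17 and 40 counts) in empty vector libraries. These groups did not overlap, and the share of all genes without overlap was not computed. The CDH1 log2 fold change of 1.36 (SE 0.581, 95% interval -0.059 to 2.78) did not pass (edgeR adjusted p = 0.524), nor did 1.20 (SE 0.615, edgeR adjusted p = 0.248) without replicate 2. SNAI2 and TWIST1 had no counts in any PANC-1 library. CDH2 had 0, 0 and 45 counts in K17 libraries and none in empty vector libraries, so its K17 counts all come from 1 library.

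The departure of empty vector replicate 2 touched the members unevenly. Against the mean of empty vector replicates 1 and 3, VIM was 1.56-fold higher in it and EPCAM 1.20-fold higher, while ZEB1 was 3.21-fold lower, FN1 1.49-fold lower and ZEB2 1.42-fold lower. Over 11185 genes with a mean of at least 1 CPM, the log2 ratio of this library to the other empty vector libraries had a Spearman rho of -0.264 with the median length of a gene's protein-coding transcripts. This is a correlation across genes of the same 3 libraries, and genes are not independent replicates. The median ratio was 0.24 in the first of 4 equal bins of transcript length (median 755 bases) and -0.52 in the last (median 4251 bases). ACTB stood at 6457 CPM in this library and at 2991 to 3145 CPM in the other empty vector libraries. The part of length in the members' values was not tested.

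**Figure D3:**
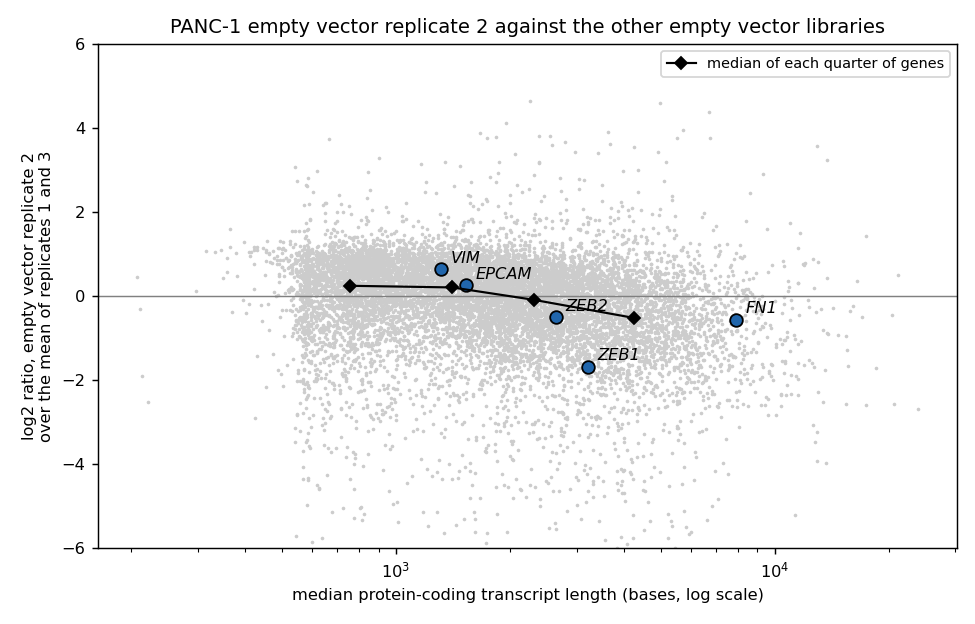
Log2 ratio of PANC-1 empty vector replicate 2 over the mean of empty vector replicates 1 and 3 (vertical axis, 0.1 CPM added to both) against median protein-coding transcript length in bases (horizontal axis, log scale) for 11185 genes (grey), with 5 members in blue and the median of each of 4 length bins in black; 42 genes lie outside the plotted range. VIM (0.64) and EPCAM (0.26) lie above 0 and ZEB1 (-1.68), FN1 (-0.56) and ZEB2 (-0.50) below it.

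Whether K17 moved a member differently in the 2 lines was tested as the difference of the effects, PANC-1 K17 minus empty vector against L3.6 wild type minus knockout, so that both run from less to more KRT17. None of the 8 members tested passed with all 12 libraries, where 1.54% of 17583 genes did in edgeR, 1.25% upward and 0.284% downward. None had an unadjusted p below 0.05 (the lowest was 0.0564, for CDH2), and DESeq2 and limma-voom called none. For VIM the difference was 0.31 (SE 0.281, edgeR adjusted p = 0.654). Without empty vector replicate 2 it was 0.69 and passed (edgeR adjusted p = 0.00807), where 1819 of 15758 genes and 1 of 8 members did. VIM was then lower with K17 in L3.6, and in PANC-1 its log2 fold change had a 95% interval of -0.082 to 0.080. For ZEB1 the difference was -0.045 (SE 0.431, edgeR adjusted p = 0.988) and for EPCAM -0.031 (SE 0.183, edgeR adjusted p = 0.968). The sign of the ZEB1 and EPCAM differences changed with the scaling of the libraries, so neither is given a direction.

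The lines themselves differed in most members. L3.6 wild type cells had more EPCAM and less VIM, ZEB1 and ZEB2 than PANC-1 empty vector cells. In all, 6 of 8 members tested passed (3 higher and 3 lower in L3.6), where 59.8% of 17583 genes did, 28.3% higher and 31.5% lower, so the share is not far from the background. EPCAM averaged 450 ± 39.6 CPM in L3.6 wild type and 31.9 ± 3.50 CPM in PANC-1 empty vector cells (SD, n = 3 each), 10.3-fold higher in L3.6 (log2 fold change 3.37, SE 0.142, edgeR adjusted p = 9.83e-09). VIM averaged 1332 ± 155 CPM in L3.6 wild type and 6142 ± 1681 CPM in PANC-1 empty vector cells, 6.36-fold lower in L3.6 by the fit (-2.67, SE 0.211, edgeR adjusted p = 1.04e-06). For both genes the libraries of the lines did not overlap, and the same held for CDH1, CDH2 and ZEB1. The share of all genes without overlap was not computed.

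ZEB1 averaged 25.7 ± 2.27 CPM in L3.6 wild type and 133 ± 68.5 CPM in PANC-1 empty vector cells, 6.85-fold lower in L3.6 (-2.78, SE 0.324, edgeR adjusted p = 2.34e-05). Its lowest PANC-1 library, empty vector replicate 2 at 53.7 CPM, was still above the highest L3.6 library. ZEB2 averaged 3.82 ± 0.924 CPM in L3.6 wild type and 5.16 ± 1.04 CPM in PANC-1 empty vector cells, with overlapping libraries. Its fitted difference was -0.87 (SE 0.208, edgeR adjusted p = 0.00378). That call depends on scaling: scaled by total counts alone, which moves the median of all genes by 0.44, ZEB2 was -0.44 and did not pass (edgeR adjusted p = 0.106). FN1 averaged 11.2 ± 3.25 CPM in L3.6 wild type and 7.69 ± 1.64 CPM in PANC-1 empty vector cells and did not pass (0.11, SE 0.238, edgeR adjusted p = 0.713).

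The sparse members rest on few counts. SNAI2 had 0, 9 and 11 counts in the L3.6 wild type libraries and none in PANC-1 empty vector cells, so wild type replicate 1 overlaps the PANC-1 libraries. Taking 3 counts per group as the floor, SNAI2 was at least 36.7-fold higher over the pooled libraries (edgeR adjusted p = 0.0141). This bound leaves out the count noise of the L3.6 libraries, and a row may hold part of a gene's reads. The bound ran from 23.9 to 63.0 when any 1 library of these groups was left out. It was 63.0 without wild type replicate 1 and 23.9 without empty vector replicate 1. Without wild type replicate 3 the call was lost (edgeR adjusted p = 0.05002). CDH2 had 1, 39 and 1 counts in L3.6 wild type and none in PANC-1 empty vector libraries and did not pass (edgeR adjusted p = 0.0660). Without wild type replicate 2 it has 2 counts left, under the floor, so no fold is given. CDH1 averaged 1.498 ± 0.711 CPM in L3.6 wild type and 0.330 ± 0.270 CPM in PANC-1 empty vector cells (1.74, SE 0.681, edgeR adjusted p = 0.0453), and lost its call without any 1 of wild type replicates 1, 2 and 3 or empty vector replicates 1 and 2 (edgeR adjusted p = 0.0596 to 0.157). L3.6 libraries held 9485257 to 15476629 counts and PANC-1 libraries 59671178 to 70789559, and depth and line cannot be told apart.

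Ordered by mean level over the 4 groups, VIM ran from L3.6 wild type (1332 ± 155 CPM) through L3.6 knockout (2086 ± 81.0 CPM) and PANC-1 K17 (5209 ± 71.3 CPM) to PANC-1 empty vector (6142 ± 1681 CPM, or 5174 CPM without replicate 2). The neighbours in that order did not overlap except for the PANC-1 groups. ZEB1 ran from L3.6 knockout (23.3 ± 2.20 CPM) and L3.6 wild type (25.7 ± 2.27 CPM), which overlap, to PANC-1 empty vector (133 ± 68.5 CPM) and PANC-1 K17 (147 ± 3.80 CPM), which overlap only through replicate 2. Without empty vector replicate 2 the ZEB1 mean of PANC-1 empty vector was 172 CPM, above K17. EPCAM ran from PANC-1 K17 (31.1 ± 0.269 CPM) and PANC-1 empty vector (31.9 ± 3.50 CPM, or 29.9 CPM and below K17 without replicate 2) to L3.6 wild type (450 ± 39.6 CPM) and L3.6 knockout (480 ± 17.6 CPM), with overlap within each line and none between lines. Group means spanned only 3.50 to 5.16 CPM for ZEB2, whose neighbours overlapped except L3.6 wild type (at most 4.74 CPM) and PANC-1 K17 (at least 4.78 CPM). For FN1 they spanned 7.38 to 11.2 CPM, with overlap between all neighbours. The thin CDH1 counts cannot be read as a low level of the gene, since some genes that most cells use were also low: TUBB was at 0 in all PANC-1 libraries and GAPDH at 34.0 to 42.5 CPM in all but empty vector replicate 2. The same limit holds for SNAI2, TWIST1 and CDH2 where they were at 0 in PANC-1 libraries, and for OCLN at 0 in L3.6.

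Further lists of transition genes set the members in context; they are described by counts and medians, with no test of a list. In L3.6, where 6.1% of all genes tested rose and 3.51% fell, 6 of 18 epithelial junction genes tested rose with KRT17 knockout and none fell (median log2 fold change 0.12, against -0.0054 over all genes). The desmosomal linker DSP had 98.2, 132 and 92.1 CPM in knockout and 65.6, 60.0 and 63.2 CPM in wild type libraries (0.74, SE 0.129, edgeR adjusted p = 0.0118). The groups did not overlap, and DSP lost its call without wild type replicate 2 (edgeR adjusted p = 0.0544). P-cadherin, CDH3, rose by 0.71 (edgeR adjusted p = 0.00211) and beta-catenin, CTNNB1, by 0.36 (edgeR adjusted p = 0.00211). In the joint fit of 4 groups no junction gene passed.

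Of 9 epithelial regulators tested in L3.6, 1 rose and 2 fell (median -0.20). The zinc finger factor KLF5 had 102, 77.0 and 85.7 CPM in knockout and 156, 200 and 192 CPM in wild type libraries (-1.08, SE 0.130, edgeR adjusted p = 0.00269), and the ETS factor EHF had 192, 201 and 195 CPM in knockout and 283, 249 and 282 CPM in wild type libraries (-0.50, SE 0.0591, edgeR adjusted p = 0.00181). Both were lower in every knockout library. Over all refits with edgeR, DESeq2 or limma-voom the adjusted p reached 0.0335 for KLF5 and 0.606 for EHF. KLF5 thus kept its call in each, and EHF lost its call in at least 1. The splicing regulator ESRP2 rose by 0.49 (edgeR adjusted p = 0.00889), a call lost without knockout replicate 3 (edgeR adjusted p = 0.0551). Of 7 other transition factors tested, only TCF4 passed: this E-box-binding factor had 81.0, 82.0 and 80.5 CPM in knockout and 30.8, 35.3 and 33.9 CPM in wild type libraries (1.26, SE 0.0800, edgeR adjusted p = 9.06e-05).

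Some mesenchymal genes of the further lists rose in L3.6 knockout cells as VIM did. Of 10 cytoskeleton and surface genes tested, 5 rose and none fell (median 0.29), but the count was 1 or 2 without any 1 library other than wild type replicate 1, and 6 without that library. Calls over all genes moved too, from 1335 of 13891 with all libraries to 574 to 807 of 14203 to 14471 in the former fits. Without wild type replicate 1 they were 2493 of 14463. AXL, a receptor tyrosine kinase, had 144, 129 and 135 CPM in knockout and 69.0, 71.1 and 58.5 CPM in wild type libraries (1.01, SE 0.0796, edgeR adjusted p = 0.000250) and kept its call in every fit without 1 library. CDH11 (2.10, SE 0.511, edgeR adjusted p = 0.0388), NT5E (1.06, SE 0.223, edgeR adjusted p = 0.0228) and TPM1 (0.46, SE 0.0932, edgeR adjusted p = 0.0196), a cadherin, a surface nucleotidase and a tropomyosin, each lost theirs in at least 1 of them. In the joint fit 1 of the 10 passed. Over all refits with edgeR, DESeq2 or limma-voom the adjusted p of AXL reached 0.231, so AXL lost its call in at least 1 refit.

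Of 13 secreted and matrix genes tested in L3.6, 3 rose and 2 fell (median 0.14). The metalloprotease MMP2 had 72.0, 75.4 and 67.4 CPM in knockout and 10.7, 10.1 and 11.3 CPM in wild type libraries, the largest change of any listed gene with a call in L3.6 (2.72, SE 0.0871, edgeR adjusted p = 3.29e-06). Thrombospondin 1, THBS1, had 813, 770 and 892 CPM in knockout and 210, 215 and 172 CPM in wild type libraries (2.03, edgeR adjusted p = 4.38e-05). The lysyl oxidase LOXL2 rose by 0.76 (edgeR adjusted p = 0.00904). The microfibril gene FBN1 changed by -0.59 (edgeR adjusted p = 0.0194) and lost its call in the fits without knockout replicate 1 or 3 or without wild type replicate 2 or 3 (edgeR adjusted p = 0.0545 to 0.0879).

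**Figure D4:**
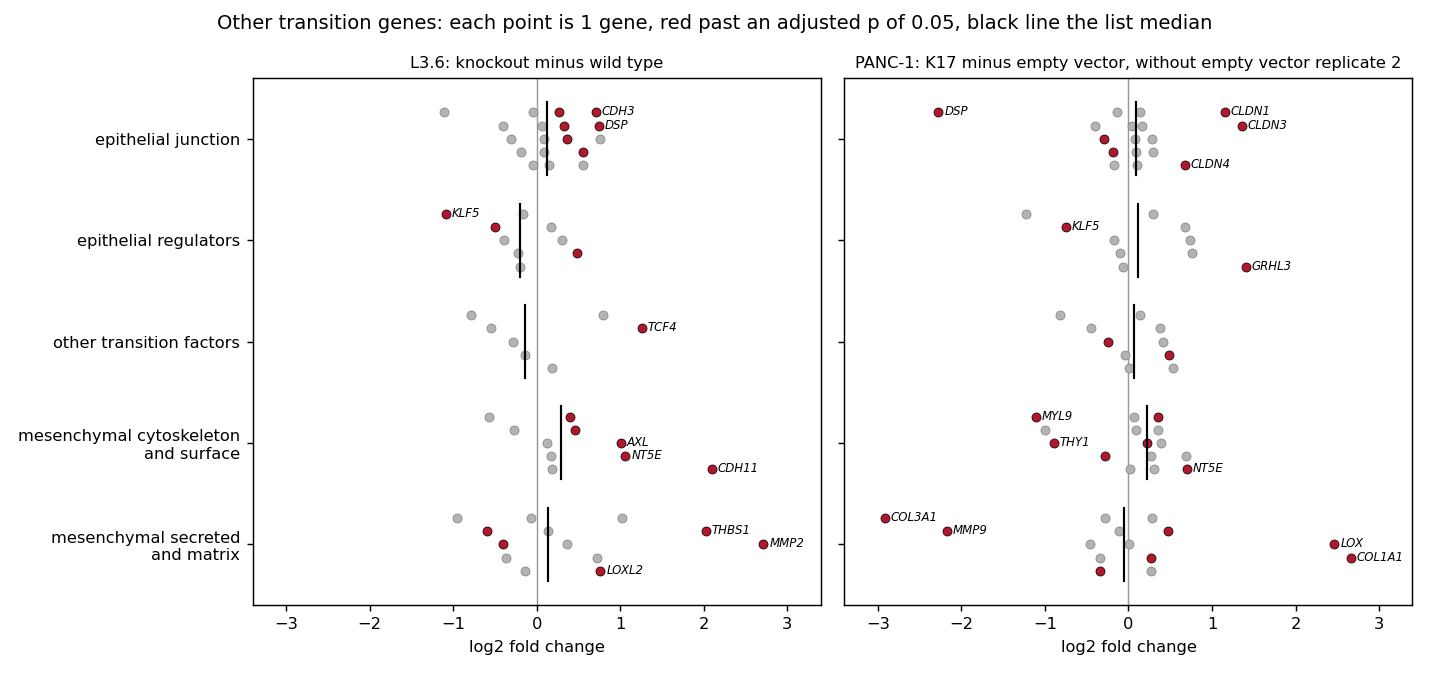
Log2 fold changes of the genes in 5 further lists in L3.6 (left, knockout minus wild type) and in PANC-1 without empty vector replicate 2 (right, K17 minus empty vector); each point is 1 gene, red points passed an edgeR adjusted p of 0.05, named where beyond 0.6 in size, and black lines are list medians. MMP2 (2.72) and CDH11 (2.10) lie farthest to the right among called genes in L3.6, and COL1A1 (2.66) and LOX (2.47) in PANC-1.

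In PANC-1 with all libraries, where 0.644% of all genes passed, few listed genes did. Of 17 epithelial junction genes, DSP fell, with 0.488, 0.771 and 0.476 CPM in K17 and 2.23, 2.57 and 3.35 CPM in empty vector libraries (-2.25, SE 0.286, edgeR adjusted p = 0.0411). Of 9 epithelial regulators, the grainyhead factor GRHL3 rose, with 43.2, 42.1 and 43.2 CPM in K17 and 15.5, 12.3 and 16.5 CPM in empty vector libraries (1.52, SE 0.145, edgeR adjusted p = 0.0231). None of 10 other factors and none of 15 cytoskeleton and surface genes passed in edgeR, with 2 and 3 of them at an unadjusted p below 0.05. DESeq2 called no other factor but 1 higher and 2 lower cytoskeleton and surface genes, and limma-voom called none in either list. Their most abundant genes were SOX9 (0.30, edgeR adjusted p = 0.684) and TCF3 (-0.53, edgeR adjusted p = 0.536), and TPM2 (-0.76, edgeR adjusted p = 0.542) and CD44 (0.40, edgeR adjusted p = 0.601). Of 14 matrix genes, 2 rose and 1 fell. The collagen cross-linking enzyme LOX had 4.81, 4.66 and 4.00 CPM in K17 and 0.819, 0.860 and 0.790 CPM in empty vector libraries (2.43, SE 0.172, edgeR adjusted p = 0.0152), COL1A1 changed by 2.31 (edgeR adjusted p = 0.0393) and COL3A1 by -2.84 (edgeR adjusted p = 0.0152). COL1A1 and COL3A1 encode chains of type I and type III collagen and passed in opposite directions; COL1A2, the other type I chain, was at 0.56 and did not pass (edgeR adjusted p = 0.659). All 5 calls were lost without any 1 library other than empty vector replicate 2, in fits where 0 or 1 of all genes passed. All 5 passed without empty vector replicate 2, where 3442 genes did.

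Without empty vector replicate 2, where 11.4% of all genes rose and 9.25% fell, 3 junction genes rose and 3 fell of 17 (median 0.090, against 0.0073 over all genes), 1 rose and 1 fell of 10 regulators (median 0.11) and of 10 other factors (median 0.071), 3 rose and 3 fell of 15 cytoskeleton and surface genes (median 0.22), and 4 rose and 3 fell of 14 matrix genes (median -0.053). No list moved in 1 direction. Among junction genes the claudins CLDN1 (1.15, edgeR adjusted p = 0.00990) and CLDN4 (0.68, edgeR adjusted p = 0.000623) rose, while DSP (-2.27, edgeR adjusted p = 0.00182) and CTNNB1 (-0.30, edgeR adjusted p = 0.00154) fell. MYL9, a myosin light chain, had 9.33, 9.67 and 10.3 CPM in K17 and 20.3, 48.1 and 21.3 CPM in empty vector libraries, and fell by 1.10 (edgeR adjusted p = 0.000156). THY1, a surface glycoprotein of mesenchymal cells, had 7.02, 8.81 and 8.29 CPM in K17 and 14.6, 25.3 and 15.0 CPM in empty vector libraries, and fell by 0.89 (edgeR adjusted p = 0.00182). NT5E (0.70, edgeR adjusted p = 0.00187), TPM1 (0.35), RUNX2 (0.49, edgeR adjusted p = 0.00156) and LOXL2 (0.47) rose, and KLF5 (-0.75, edgeR adjusted p = 0.0330) and TCF3 (-0.24, edgeR adjusted p = 0.00674) fell. KLF5 lost its call without any 1 further library, CLDN1 without empty vector replicate 3 and TCF3 without empty vector replicate 1 (edgeR adjusted p = 0.0546 to 0.178).

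Between the lines, junction genes were mostly higher in L3.6 wild type than in PANC-1 empty vector cells (13 higher and 3 lower of 19, median 2.45) and cytoskeleton and surface genes mostly lower (3 higher and 9 lower of 15, median -3.36), against a median of -0.010 over all genes. Of all genes 28.3% were higher and 31.5% lower, 59.8% in all. Of 11 epithelial regulators 5 were higher and 1 lower (median 0.83), a share near that background; of 11 other factors 4 were higher and 4 lower (median -0.24), and of 14 matrix genes 7 were higher and 4 lower (median 0.75). The epithelial splicing regulator ESRP1 had 218, 204 and 204 CPM in L3.6 wild type and 0.127, 0.143 and 0.521 CPM in PANC-1 empty vector libraries (9.21, SE 0.562, edgeR adjusted p = 1.38e-07). The epithelial ETS factor ELF3 had 140, 130 and 163 CPM in L3.6 wild type and 0.367, 0.430 and 0.205 CPM in PANC-1 empty vector libraries (8.28, SE 0.360, edgeR adjusted p = 1.28e-08). EHF (9.86) and KLF5 (6.33) were also higher in L3.6.

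On the mesenchymal side, THY1 had 0, 0.105 and 0.414 CPM in L3.6 wild type and 14.6, 25.3 and 15.0 CPM in PANC-1 empty vector libraries (-7.23, SE 0.648, edgeR adjusted p = 2.81e-06). The calcium-binding protein gene S100A4 (-5.55) and the tropomyosin gene TPM2 (-4.67) were lower in L3.6 too. The matrix genes COL3A1 (3.14), FBN1 (4.16) and COL1A2 (2.29) were among the 7 of their list that were higher in L3.6. The 3 junction genes that were lower in L3.6 were OCLN, CTNNA1 and CLDN4. OCLN, a tight junction gene, was at 0 in all 6 L3.6 libraries and at 44.3 to 88.2 CPM in PANC-1 empty vector libraries. CTNNA1 (-0.81, edgeR adjusted p = 0.0226), the gene of alpha-catenin, and CLDN4 (-0.66, edgeR adjusted p = 0.0154) lost their calls scaled by total counts alone (edgeR adjusted p = 0.244 and 0.337) and without empty vector replicate 2 or wild type replicate 2 (edgeR adjusted p = 0.0536 to 0.0959). GRHL3 was the epithelial regulator that was lower in L3.6 (-2.58, edgeR adjusted p = 2.6e-07), and AXL (2.86), ACTA2 (1.47) and CALD1 (0.84) were the cytoskeleton and surface genes that were higher. The RNA of a bulk library does not tell fewer cells with a transcript from less transcript per cell, which holds for every level given here.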

How the data were processed

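Per the labels' protocols, RNA came from TRIzol extracts and libraries from a TruSeq RNA kit of Illumina. Tools listed in the submitters' processing notes are STAR 2.7.3a, kallisto 0.46.2 and bcl2fastq 1.8.4, with GRCh38 for human and GRCm38 for mouse cells; not given in the sources used here were the counting tool, its annotation and its use of strand. The values used are whole-number counts per gene as deposited, with no normalization by the authors. A row may hold part of a gene's reads, and overlapping or antisense reads cannot be told apart. The mouse libraries of the 18 in the series were not used here.

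Genes were placed with GENCODE 29 on GRCh38. Levels are counts divided by the library total, scaled to CPM. Each contrast was fitted over all genes with edgeR 4.0.16 (R 4.3.3; TMM factors, filterByExpr, robust quasi-likelihood, Benjamini-Hochberg, threshold 0.05); the 2 contrasts over both lines used all 12 human libraries. The procedure was tested on simulated data. Fold changes come from these scaled fits, so they can differ from ratios of CPM. Alternatives were RLE, upper-quartile or no scaling beyond totals, other filters, DESeq2 1.42.0, limma-voom (limma 3.58.1), a replicate block, 1 joint fit and leaving out each library. No 2 replicates agreed within counting noise. Members and lists were chosen with earlier results of these data known. Of each further list up to 4 called genes with the largest change and a mean of at least 1 CPM were named, or the 2 most abundant where none passed; some genes that this rule picks are not reported here, and other genes were named after their values were seen.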

Additional observations from a re-analysis of the deposited data

Results flagged for a closer look

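For the further genes below the effect of K17 differed between the lines with all 12 libraries, and for VIM only without PANC-1 empty vector replicate 2. The test was of the difference itself, PANC-1 K17 minus empty vector against L3.6 wild type minus knockout, and the values are log2. For VIM, leaving out PANC-1 empty vector replicate 2 gave a difference of 0.69 (edgeR adjusted p = 0.00807) while all libraries gave 0.31 (edgeR adjusted p = 0.654). In the fit without that library 1819 of 15758 genes passed, and VIM was the only 1 of 8 members to pass. ACTB changed in L3.6 by a like amount as VIM. The part of library makeup was not tested.

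Of the further genes, all tested with all 12 libraries in edgeR, 3 had a negative difference. It was -2.73 for COL3A1, -1.61 for KLF5 and -1.53 for DSP. The positive differences among matrix genes were 2.32 for LOX, 2.22 for MMP2, 2.00 for THBS1, 1.85 for COL1A1 and 1.12 for LOXL2. The others were NT5E at 1.79, GRHL3 at 1.79 and TCF4 at 1.22. In L3.6 knockout cells MMP2, THBS1, TCF4 and LOXL2 passed upward and did not pass in PANC-1 with all libraries, while LOX, GRHL3 and COL3A1 passed in PANC-1 and not in L3.6. DSP was higher in L3.6 knockout cells and lower in PANC-1 K17 cells, that is, lower with more KRT17 in both. Over the fits that left out 1 library the calls of DSP, KLF5, THBS1, COL1A1 and LOXL2 were lost in at least 1, and that of DSP also with no filter and with limma-voom (adjusted p = 0.0607 and 0.0533).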

How the results depend on the processing

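Precision is limited by 3 libraries a group, by the PANC-1 empty vector library that stood apart, and by the thin counts of CDH1, CDH2, SNAI2 and TWIST1. Over the refits of members, 527 values kept direction and side of the threshold, 52 turned sign, 8 lost and 5 gained a call; over those of KRT17 and other called genes, 1835 kept both and 185 lost their call. The rise of VIM in L3.6 passed in every refit except the joint fit of 4 groups, where no member passed and 204 genes did. Without 1 library each, the called genes ranged from 574 to 2493 in L3.6 (2493 without wild type replicate 1), 0 to 3442 in PANC-1, 2053 to 2837 in PANC-1 without empty vector replicate 2 and 138 to 1819 for the difference between lines; called members ranged from 1 to 2, 0 to 1, 1 to 2 and 0 to 1, and from 4 to 7 between the lines. In PANC-1, DESeq2 called 595 genes and the joint fit 363; for the difference DESeq2 called 783. Where an arm kept 1 library, that library is assumed to vary like the other groups; CDH1 then passed in PANC-1 without empty vector replicates 2 and 3 (2.86, edgeR adjusted p = 0.0108). DESeq2 also called CDH2 between the lines (8.64, adjusted p = 0.0257).

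Same-numbered libraries had correlated deviations of -0.22 to -0.01 in L3.6 and 0.09 to 0.24 in PANC-1. Differently numbered ones had -0.12 to 0.16 in L3.6 and -0.25 to 0.17 in PANC-1. The same-numbered values of PANC-1 were all positive, so these values do not settle whether the numbers mark pairs there. The numbers were not taken as pairs in the main fits. With a replicate block, 665 genes were called in L3.6, 0 in PANC-1 by edgeR (1262 at an unadjusted p below 0.05; limma-voom without a block called 141), 2252 in PANC-1 without empty vector replicate 2 and 70 for the difference, where DSP, KLF5, THBS1, COL1A1, LOXL2 and TCF4 lost their calls (edgeR adjusted p = 0.0542 to 0.113). The block left the same number of members called in these 4 fits and was not run between the lines.

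Upper-quartile factors split the calls into 706 higher and 639 lower in L3.6 (847 and 488 with TMM), 1549 and 2193 in PANC-1 without empty vector replicate 2 (1902 and 1540 with TMM) and 6308 and 4416 between the lines (4971 and 5535 with TMM; 6953 and 3931 by total counts, an alternative chosen after seeing the data).

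In the fits run, signs turned for members only, and only for small or imprecise values. Other genes were refitted only where the main fit called them, which leaves little room for a sign to turn, so members and other genes are not compared. The cause of the turns was not tested. In L3.6, CDH1 was -0.087 with limma-voom and -0.053 with the block, and over fits without 1 library ranged from -0.79 to 0.58, ZEB2 from -0.30 to 0.044 and SNAI2 from -0.43 to 1.10. In PANC-1 those ranges were -0.24 to 0.37 for ZEB1, -0.22 to 0.044 for ZEB2 and -0.13 to 0.044 for EPCAM. Without empty vector replicate 2, VIM was 0.0035 with a CPM filter, 0.0099 by total counts and -0.052 to 0.043 without 1 library, and EPCAM -0.0067 with upper-quartile factors and -0.015 to 0.098. For the difference between lines, ZEB1 was 0.023 with RLE factors, 0.058 with no filter, 0.0059 with a CPM filter, 0.0070 by total counts, 0.023 with DESeq2, 0.12 with limma-voom, 0.099 with the block and -0.33 to 0.26 without 1 library. EPCAM was 0.049 with RLE factors, 0.095 with no filter, 0.050 with a CPM filter, 0.058 by total counts, 0.049 with DESeq2 and -0.073 to 0.20. ZEB2 ranged from -0.40 to 0.029 and SNAI2 from -0.40 to 1.22. Between the lines FN1 ranged from -0.038 to 0.32.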
